A study of Danio rerio with 40 samples.

Results

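The comparison described here set 2 pools of zebrafish larvae lacking smad3a, smad3b, smad6a and smad6b against 3 pools of wild-type larvae, at 5 days post fertilization. The 5 libraries were chosen by their level of nr1d1, a circadian clock gene. The 5 pools of each genotype fell into a set with a higher and a set with a lower nr1d1 level, and the set with the higher level was taken from each genotype. That gave knockout pools 1 and 2 and control pools 3, 4 and 5, which are 5 of the 40 samples of the series and 5 of its 10 whole-larva libraries. The nr1d1 level was 334 and 352 CPM (read counts scaled to library size) in the knockout pools taken and 42.1, 48.0 and 45.9 CPM in the control pools taken. In the pools not taken it was 1.81, 1.59 and 2.62 CPM in knockout pools 3 to 5 and 8.92 and 8.43 CPM in control pools 1 and 2. Because nr1d1 chose the libraries, it and the other clock genes are described below without a test. They stayed in the fit, however, and so are part of the counts of called genes and of the ranking of the largest rises.

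SMAD proteins carry signals of the TGF-beta family (transforming growth factor beta) and of its BMP branch (bone morphogenetic proteins) from receptors at the cell surface to the nucleus. Smad3 is a receptor-regulated SMAD of the TGF-beta and activin branch, whereas Smad6 is an inhibitory SMAD that mainly restrains BMP signalling, and both have a pair of genes in zebrafish. The clock gene nr1d1 encodes REV-ERB alpha, a nuclear receptor that represses clock activators such as arntl1 (bmal1), and in fish as in mammals its transcript rises and falls steeply over the day.

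The series concerns the part that smad3 plays in a zebrafish model of aortic disease linked to smad6, as its title states. The knockout larvae carried homozygous null genotypes at all 4 genes (smad3a-/-;smad3b-/-;smad6a-/-;smad6b-/-, abbreviated qKO in the labels), and the controls were wild-type cousins, not siblings of the same cross. Each library was made from 5 whole larvae pooled, raised at 27°C, so a value is an average over all tissues of 5 animals. The labels call the pools biological replicates but name no clutch, collection time or library batch. The p-values below measure the spread between pools of the same genotype and the same nr1d1 set. Differences between the sets of a genotype do not enter that spread. Genotype cannot be told apart from family, time of collection or batch.

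Knockout pools 1 and 2 had total counts of 25081743 and 58975921, and control pools 3 to 5 had 54145698, 48556835 and 110409906. Neither the totals, the number of genes detected nor the mitochondrial share passed a two-sided exact permutation test (p = 0.6 for each, where 2 against 3 libraries cannot go below 0.1). The 20 most counted genes took 14.0% and 13.8% of the counts in the knockout pools and 14.6% to 15.3% in the control pools (exact permutation p = 0.1). Spearman correlations across genes were 0.993 between the knockout pools, 0.995 to 0.997 between the control pools and 0.981 to 0.984 between the genotypes.

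Among the clock genes, some lay close between the genotypes in the higher set and others lay far apart. The clock list held 44 tested genes, 43 of them without nr1d1. Over the 43, the median absolute difference in log2(CPM + 1) between knockout pools 1 and 2 and control pools 3 to 5 was 0.34, and that between the higher and lower sets of the controls was 0.50. The root mean square, which large differences weigh on, had the other order, at 1.13 between the genotypes and 0.73 between the control sets. Over all 44 genes, 10 differed by more than 1 between the genotypes in the higher set and 9 between the control sets. With nr1d1 included, the median of 0.35 was the smallest of the 6 pairs of groups, the others lying between 0.51 and 1.16. Values did not overlap between the compared groups for 32 of the 44 genes (21 above and 11 below in the knockouts), as they did not for 50.4% of all 23754 tested genes. In 27 of the 43 clock genes (62.8%) the higher set stood apart from the lower set in the same direction in both genotypes, 19 higher and 8 lower, as did 12.5% of all tested genes. The directions were opposite in 4 (9.3%), against 8.51% of all tested genes. These values are a description, since nr1d1, a clock gene, chose the sets, and the counts without nr1d1 were added after the data were seen.

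Several repressors and output genes of the clock were far above the controls. The period gene per1a, a repressor of the clock, stood at 74.6 and 78.4 CPM in the knockout pools and at 16.3, 14.7 and 13.4 CPM in the control pools. The output transcription factor dbpb stood at 126 and 131 against 24.5, 26.3 and 25.1 CPM, and ciarta, a repressor known in mammals as Chrono, at 121 and 129 against 42.3, 43.9 and 44.3 CPM. In all 3 genes the knockout pools were well above every control pool. The nr1d1 relatives nr1d4b and nr1d4a had lower levels but larger ratios to the controls, with nr1d4b at 56.6 and 79.1 against 2.01, 3.02 and 2.49 CPM. They did not separate the control sets in the same way, since nr1d4b stood at 3.44 and 3.66 CPM in control pools 1 and 2. In knockout pools 3 to 5 nr1d4b stood at 17.7, 18.9 and 8.11 CPM, also above those control pools. Other clock genes ran the other way. The period gene per3 was at 83.8 and 79.1 CPM in the knockout pools and at 162, 172 and 138 CPM in the control pools, and the retinoic acid receptor-related rorab was at 89.0 and 78.1 against 134, 147 and 138 CPM. Close to the controls lay bhlhe40 (201 and 231 against 260, 279 and 247 CPM), the activator arntl1a (28.3 and 27.8 against 32.4, 33.9 and 30.7 CPM) and tefa, whose values overlapped (104 and 122 against 117, 124 and 130 CPM).

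**Figure D1:**
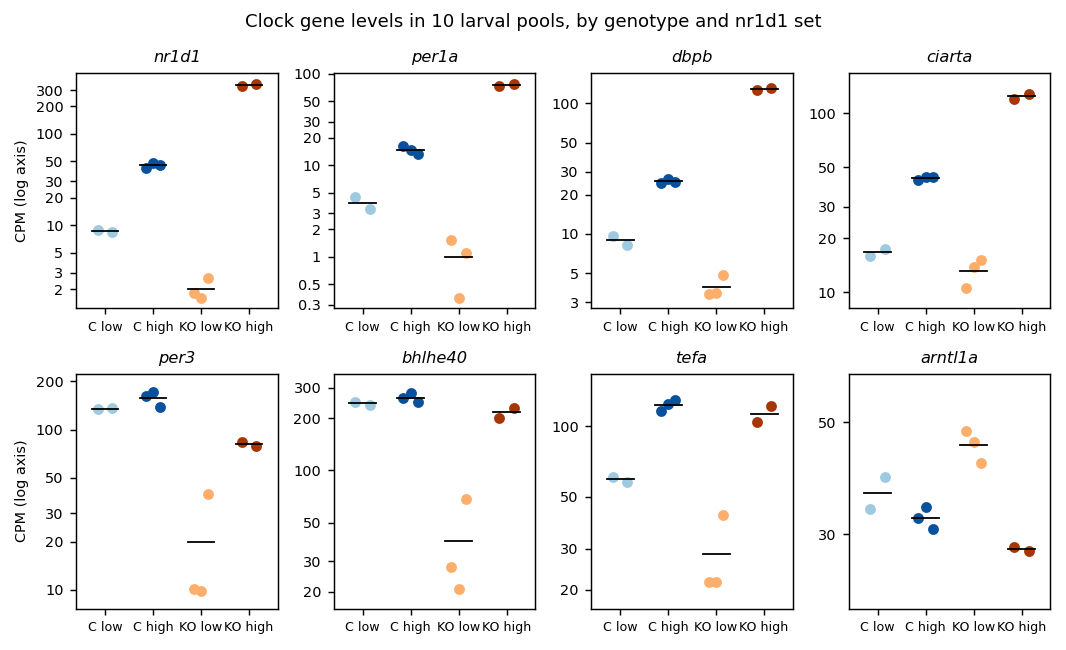
Levels of 8 clock genes (CPM, log axis) in each of the 10 whole-larva pools, as points, with the mean of each group as a line. C is control, KO is quadruple knockout, and high and low name the sets by nr1d1; the high knockout pools lie above the high control pools for nr1d1, per1a, dbpb and ciarta and below them for per3, while tefa overlaps.

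The targeted genes were read next, as a check of the genotype labels, with a gene called at an adjusted p under 0.05. Transcripts of smad3a (ENSDARG00000036096) stood at 12.8 and 12.4 CPM in the knockout pools and at 37.1, 41.8 and 38.8 CPM in the control pools, which is -1.64 ± 0.11 SE as a log2 fold change (adjusted p = 9.45e-07 by the quasi-likelihood test of edgeR, Benjamini-Hochberg). For smad3b (ENSDARG00000010207) the levels were 6.92 and 7.00 against 13.8, 14.2 and 13.3 CPM (log2 fold change -0.98 ± 0.11 SE, edgeR adjusted p = 5.58e-05). Both smad3 transcripts were thus reduced and not lost. The inhibitory smad6b (ENSDARG00000031763) was higher in the knockout pools, at 40.1 and 40.2 against 26.2, 24.1 and 27.4 CPM (log2 fold change 0.63 ± 0.09 SE, edgeR adjusted p = 0.000353). For smad6a (ENSDARG00000053209) the values were 35.8 and 39.1 against 30.4, 34.0 and 33.2 CPM, and although they did not overlap, the log2 fold change of 0.21 (SE 0.09) was not called (adjusted p = 0.107, edgeR). So 3 of the 4 targeted genes were called, against 19.9% of all genes tested. No reduction was seen for the smad6 genes, whose knockout is taken from the labels.

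**Figure D2:**
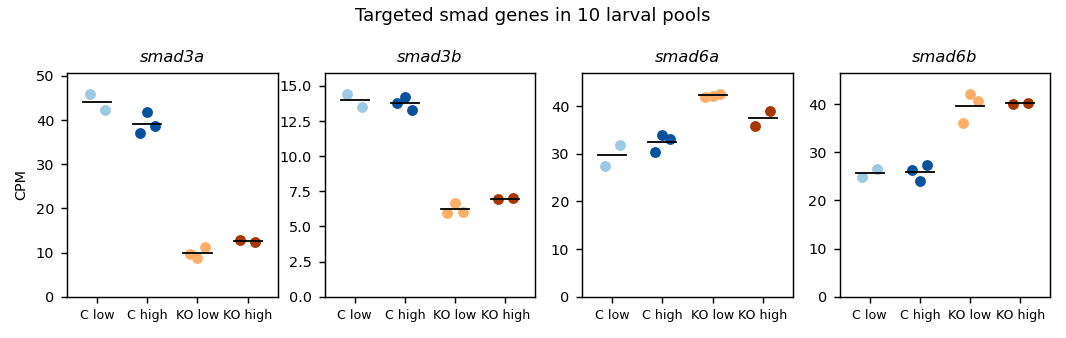
Levels of the 4 targeted genes (CPM, linear axis from 0) in each of the 10 pools, as points, with group means as lines. Both knockout sets lie below both control sets for smad3a and smad3b and above them for smad6a and smad6b.

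The genes next to the targeted genes were looked at because a knockout line carries the chromosome on which each mutation arose. In the gene order of the RefSeq table for GRCz12tu, smad3a and smad6a lie within 100 tested genes of each other, and so do smad3b and smad6b. Of the 404 genes in these stretches, counting up to 100 tested genes to either side, 104 (25.7%) were called, 50 higher and 54 lower. Of all 18031 tested genes with a place in that table, 21.4% were called. The median absolute log2 fold change was 0.22 in the stretches and 0.21 overall. This count was added after the data were seen. Of the genes with the largest changes named below that had a place in that table, only si:dkey-242h9.3 lay in these stretches. No place was found for crp2, smyhc2, guca1a, RNPS1 and the ITLN1 entry. The same held for the other genes with clone names, including every one without counts in the compared pools of a genotype. Whether these unplaced genes lie near a targeted gene was not tested.

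Over the whole transcriptome, 4737 of 23754 tested genes were called, 2664 higher (11.2%) and 2073 lower (8.73%) in the knockout pools, with 8042 genes at an unadjusted p under 0.05. With the clock list left out, 4717 genes were called. Called genes had a median absolute log2 change of 0.53 with that list included. Changes of at least 1 on the log2 scale were found for 374 higher and 555 lower genes. The share of called genes that were higher depended on the scaling, at 56.2% with TMM (trimmed mean of M values), 50.9% with DESeq2's size factors, 45.8% with the upper quartile and 70% with library totals. Over all tested genes the log2 fold change had a median of 0.03 with TMM and 0.09 with library totals. Leaving out control pool 5, knockout pool 1 or knockout pool 2 lowered the number of called genes to 2906, 2735 and 2518.

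Among annotated genes with at least 1 CPM, the 8 largest rises included RNPS1, an RNA-binding protein of the exon junction complex with the largest fold change of them, and rpe65a, the isomerase of the retinal pigment epithelium that regenerates the visual chromophore. RNPS1 stood at 4.13 and 5.39 CPM in the knockout pools and at 0.0818, 0.149 and 0.114 CPM in the control pools (log2 fold change 5.37 ± 0.37 SE, edgeR adjusted p = 1.41e-06). The level of the entry rnps1 changed by -0.75 and was not called (adjusted p = 0.186, edgeR), and how the counting split reads between these copies is not known. The level of rpe65a was 67.5 and 76.2 against 6.10, 5.87 and 6.05 CPM (log2 fold change 3.58 ± 0.44 SE, edgeR adjusted p = 0.00245). An intelectin entry, ITLN1 (1 of many), encoding a carbohydrate-binding lectin, stood at 22.2 and 20.5 against 2.27, 2.75 and 2.21 CPM (log2 fold change 3.16 ± 0.19 SE). The photoreceptor calcium sensor guca1a rose by 2.98 and ms4a17a.8 by 3.13. The D-amino acid oxidase gene dao.1 rose by 3.69, from at most 0.569 CPM in the controls to 1.95 and 6.27 CPM, but was not called without knockout pool 2 (adjusted p = 0.0723, edgeR). The remaining 2 of the 8 largest rises were nr1d4b and nr1d4a, described with the clock.

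The largest falls included several genes of the liver and its secreted proteins. The haem scavenger hpxa (hemopexin) stood at 1.23 and 1.68 CPM in the knockout pools and at 42.4, 43.9 and 35.5 CPM in the control pools (log2 fold change -4.74 ± 0.33 SE, edgeR adjusted p = 4.83e-05). The iron hormone hamp (hepcidin), which the liver makes under BMP control in mammals, stood at 0.835 and 0.525 against 9.68, 12.2 and 12.4 CPM (log2 fold change -4.17 ± 0.45 SE, edgeR adjusted p = 0.000382). Both knockout pools were below every control pool for both genes. The uridine phosphorylase upp2 fell by 5.87, from 4.6, 7.55 and 5.21 CPM to 0.0795 and 0.105 CPM. The slow myosin heavy chain smyhc2, at 2.5, 1.43 and 2.72 CPM in the controls, had 0 and 0.0875 CPM in the knockout pools, a fall of 5.18 that rests on 5 counts in the knockout pools and became 10.1 without knockout pool 2. The 4 others were cbln8 (-4.64), igflr1 (-4.58), the adhesion G protein-coupled receptor adgre9 (-3.42, and -5.30 without knockout pool 2) and the C-reactive protein crp2 (-3.29), which was not called without knockout pool 1 or 2 (adjusted p = 0.0776 and 0.0581, edgeR). In whole larvae, fewer cells of a type and less RNA per cell cannot be told apart.

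Several genes with clone names had no counts in the pools of 1 genotype. The entry FO904903.1 had 0 counts in the 3 control pools and 2.62 and 2.82 CPM in the knockout pools, at least 192-fold higher than the level that 3 counts over the control pools would give. Conversely, si:ch211-181d7.1 and si:ch211-181d7.3 had 0 counts in both knockout pools. Their levels in the controls were 11.1 to 13.4 and 8.43 to 10.2 CPM, so they were at least 333-fold and at least 250-fold lower. AL928650.3, also with 0 counts in the knockouts, was at least 61.1-fold lower. These bounds, on CPM not scaled by TMM, cover counting error only. The further large rises were si:ch73-97h19.2 (6.76) and si:dkey-242h9.3 (4.42). The strand setting of the counting is not given in the sources used here, so overlapping and antisense genes are uncertain.

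**Figure D3:**
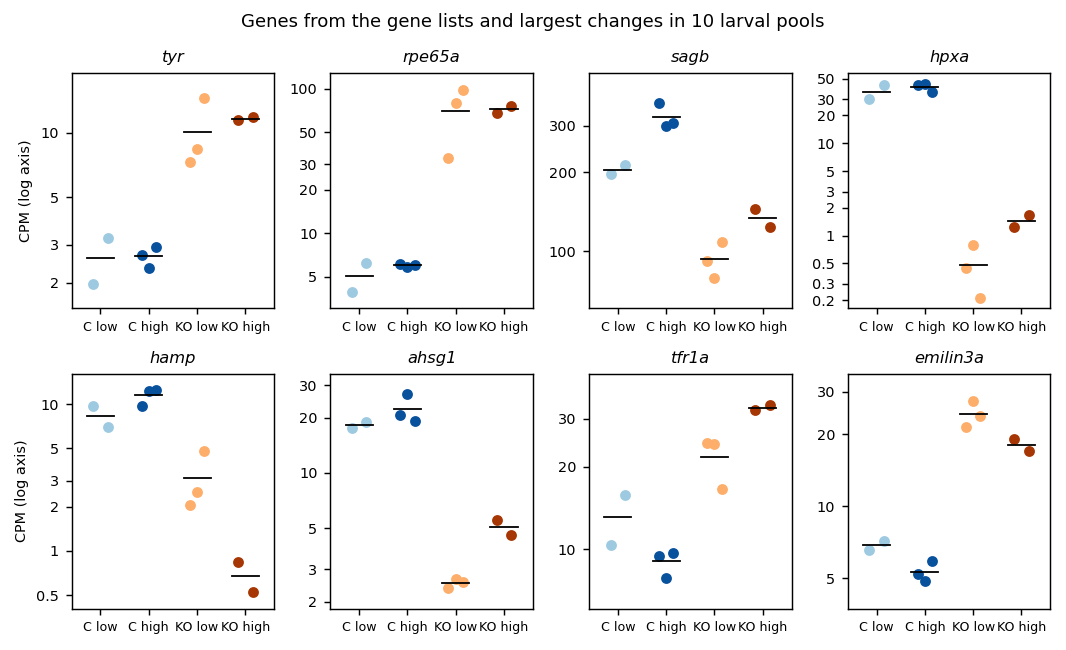
Levels of 8 genes (CPM, log axis) in each of the 10 pools, as points, with group means as lines. The knockout pools lie above the control pools in both sets for tyr, rpe65a, tfr1a and emilin3a and below them for sagb, hpxa, hamp and ahsg1, and hamp is lower in the high than in the low knockout pools.

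For this list and those that follow, the shares called among all tested genes, 11.2% higher and 8.73% lower, are the background. Of 61 tested components of the pathway itself, 15 rose (24.6%) and 5 fell (8.2%, near the background), with a median log2 fold change of 0.13 against 0.03 for all tested genes. The ligand tgfb2 stood at 15.1 and 12.8 CPM in the knockout pools and at 9.21, 7.81 and 7.82 CPM in the control pools (log2 fold change 0.74 ± 0.12 SE, edgeR adjusted p = 0.00105). The TGF-beta type I receptor tgfbr1b stood at 18.1 and 15.4 against 12, 10.0 and 10.3 CPM (log2 fold change 0.63 ± 0.11 SE, edgeR adjusted p = 0.00178). In control pools 1 and 2, which are not part of this comparison, tgfbr1b stood at 20.4 and 17.9 CPM and tgfb2 at 11.4 and 12.2 CPM. The BMP antagonist nog2 rose by 0.52 and the BMP-regulated smad1 by 0.44. The other receptors that rose were bmpr2b, acvr1bb, bmpr1bb, acvr2bb, bmpr2a and bmpr1ab, by 0.29 to 0.60. The 5 members that fell were bmp3, bmp2a, bmp2b, gdf6a and tgfb5, with bmp3 at 14.8 and 15.1 against 21.3, 21.3 and 21.4 CPM (log2 fold change -0.51 ± 0.09 SE, edgeR adjusted p = 0.00134). The 15 rises became 6 without knockout pool 1 and 9 without knockout pool 2, and the 5 falls became 1 without knockout pool 2. Here and in the lists below, members named beyond the 4 with the lowest p were picked after their values were seen.

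Of 27 tested BMP targets, 6 rose (22.2%) and 3 fell (11.1%), the latter near the 8.73% of all genes, with a median of -0.05. The inhibitor of differentiation id3, a classical BMP target, stood at 47.0 and 47.7 CPM in the knockout pools and at 37.6, 34.6 and 34.0 CPM in the control pools (log2 fold change 0.42 ± 0.08 SE, edgeR adjusted p = 0.00242). The transcription factors znf703 and atoh8 rose by 0.58 and 0.40, of which atoh8 was not called without knockout pool 1 (adjusted p = 0.095, edgeR), while hamp fell as given above. Of 32 tested TGF-beta targets, 9 rose (28.1%) and 2 fell (6.25%), with a median of 0.10. The cell cycle inhibitor cdkn1a (p21) had the lowest p of them, at 33.5 and 37.3 against 7.75, 6.36 and 8.05 CPM (log2 fold change 2.26 ± 0.16 SE, edgeR adjusted p = 2.33e-06). The fibronectin gene fn1a stood at 209 and 191 against 131, 107 and 120 CPM (log2 fold change 0.75 ± 0.09 SE, edgeR adjusted p = 0.000108). The collagen cross-linking enzyme loxl2a rose by 1.09, thrombospondin thbs1b by 0.50 and the SMAD corepressor skilb by 0.88, and the actin-binding tagln fell by 0.49. The 6 BMP target rises became 3 without control pool 5, knockout pool 1 or knockout pool 2, and the 9 TGF-beta target rises became 5 without knockout pool 1. The few falls became 1 BMP target without knockout pool 1, and 1 or 0 TGF-beta targets without control pool 3, 4 or 5 or knockout pool 1.

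Extracellular matrix genes were higher as a group. Of 63 tested members 31 rose (49.2%, against 11.2% of all genes) and 2 fell, efemp2b and col10a1a. The median was 0.31. The mean of log2(CPM + 1) over the list was 6.68 and 6.73 in the knockout pools and 6.30 to 6.46 in the control pools. In control pools 1 and 2, which are not part of this comparison, it was 6.61 and 6.53. The elastic fibre glycoprotein emilin3a stood at 19.1 and 17.0 CPM against 5.22, 4.85 and 5.91 CPM (log2 fold change 1.75 ± 0.12 SE, edgeR adjusted p = 1.41e-06). Cartilage genes were among the risers. Matrilin matn1 stood at 694 and 754 against 371, 311 and 380 CPM (log2 fold change 1.03 ± 0.11 SE, edgeR adjusted p = 5.98e-05), col11a2 at 935 and 1013 against 535, 426 and 514 CPM, and the major cartilage collagen col2a1a rose by 0.82. The basement membrane collagen col4a1 stood at 89.1 and 93.9 against 61.5, 53.0 and 53.5 CPM (log2 fold change 0.71 ± 0.09 SE, edgeR adjusted p = 0.000175). In control pools 1 and 2 its level was 93.0 and 97.0 CPM. Elastic fibre members also rose, fibrillin fbn2b by 1.36, elastin elnb by 1.19 and efemp2a by 0.87. The name col6a3 stands for 2 entries, which rose by 0.75 and 0.51. Without any 1 library, between 22 and 31 members rose, and the 2 falls became 1 without control pool 3 or 5 or knockout pool 1 or 2.

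Of 34 tested smooth muscle genes, 7 rose (20.6%, against 11.2% of all genes) and 3 fell (8.82%, against 8.73%), with a median of 0.06. The pericyte proteoglycan cspg4 stood at 36.5 and 38.6 CPM in the knockout pools and at 25.4, 19.8 and 24.4 CPM in the control pools (log2 fold change 0.70 ± 0.11 SE, edgeR adjusted p = 0.00104). In control pools 1 and 2, which are not part of this comparison, cspg4 stood at 37.8 and 41.0 CPM. The cell adhesion gene mcamb rose by 0.41 and the calponin cnn2 by 0.38. The contractile genes tagln and cnn1a fell, cnn1a by 1.69. Endothelial genes had 6 rises (16.7%) and no fall among 36 tested, with a median of 0.05. They were vwf, the von Willebrand factor gene (7.51 and 8.54 against 4.30, 3.36 and 4.47 CPM, log2 fold change 0.99), lyve1a, egfl7, fli1a, cdh5 and plvapb. In control pools 1 and 2 the level of vwf was 7.32 and 6.46 CPM. Without knockout pool 1, tagln, lyve1a and egfl7 were not called (adjusted p = 0.0788, 0.05 and 0.112, edgeR), and without knockout pool 2, cnn2 and fli1a were not (adjusted p = 0.0507 and 0.0569, edgeR). The 6 endothelial rises became 2 without knockout pool 1, the 3 smooth muscle falls 1, and the 7 smooth muscle rises 4 without control pool 4 or 5 and 2 without knockout pool 2.

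Cardiac muscle genes were higher than in control pools 3 to 5, with 12 rises (40%) and 1 fall among 30 tested and a median of 0.38. The mean of log2(CPM + 1) over the list was 4.23 and 4.41 in the knockout pools and 3.94 to 4.04 in the control pools. In control pools 1 and 2, which are not part of this comparison, it was 4.27 and 4.22, within the range of the knockout pools. The atrial myosin heavy chain myh6 stood at 5.80 and 7.63 CPM in the knockout pools and at 1.86, 2.4 and 1.95 CPM in the control pools (log2 fold change 1.72 ± 0.17 SE, edgeR adjusted p = 2.61e-05). In control pools 1 and 2 its level was 4.74 and 6.16 CPM. The myosin myh7l stood at 47.6 and 55.3 against 26.0, 26.7 and 30.8 CPM (log2 fold change 0.89 ± 0.10 SE, edgeR adjusted p = 5.73e-05). The cardiac transcription factors gata4, nkx2.5, tbx5a and tbx20 rose by 1.22, 0.92, 0.78 and 0.67, and the calcium release channel ryr2b by 0.83. The level of ryr2b was 4.37 and 4.69 CPM in the knockout pools, but 8.92 and 7.89 CPM in control pools 1 and 2. The sarcoplasmic calcium pump atp2a2a fell by 0.37. The 12 rises became 7 without control pool 3 and 6 without control pool 4 or knockout pool 2, and the single fall was not called without control pool 5 or knockout pool 1, which left 0.

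In the higher set, blood lineages moved in opposite directions. Of 27 tested erythrocyte genes 15 rose (55.6%) and none fell, with a median of 0.92. The transferrin receptor tfr1a, which brings iron into red cell precursors, stood at 32.2 and 33.8 CPM in the knockout pools and at 9.47, 7.87 and 9.72 CPM in the control pools (log2 fold change 1.87 ± 0.19 SE, edgeR adjusted p = 0.000149). The haem enzymes alas2, fech and urod rose by 2.14, 1.14 and 0.92, and the red cell transcription factors klf1 and gata1a by 2.04 and 1.39. In alas2 the 2 knockout pools differed, at 52.0 and 81.6 CPM against 16.1, 13.0 and 16.3 CPM. Of 32 tested neutrophil and macrophage genes 10 fell (31.2%, against 8.73% of all genes) and none rose, with a median of -0.44. The neutrophil protease npsn stood at 16.4 and 14.8 against 27.4, 25.2 and 24.2 CPM (log2 fold change -0.72 ± 0.10 SE, edgeR adjusted p = 0.00043). The leukocyte actin regulators coro1a and lcp1 fell by 0.57 and 0.45, the macrophage receptor csf1ra, which pigment cells of the fish also use, by 0.77, and mpx and mpeg1.1 by 0.53 and 0.63. The 15 erythrocyte rises became 9 without knockout pool 2, and lcp1 was not called without knockout pool 1 (adjusted p = 0.0639, edgeR). The 10 leukocyte falls became 6 without knockout pool 1 and 4 without knockout pool 2, where 1 member rose.

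Liver genes were lower as a group. Of 54 tested members 38 fell (70.4%) and none rose, with a median of -0.69. The mean of log2(CPM + 1) over the list was 5.70 and 5.82 in the knockout pools and 6.49 to 6.59 in the control pools. The plasma glycoprotein ahsg1 (fetuin) stood at 5.53 and 4.59 CPM in the knockout pools and at 20.8, 26.7 and 19.2 CPM in the control pools (log2 fold change -2.15 ± 0.15 SE, edgeR adjusted p = 1.41e-06). The matrix-stabilising inhibitor itih2 stood at 55.7 and 58.0 against 117, 114 and 116 CPM (log2 fold change -1.02 ± 0.09 SE, edgeR adjusted p = 1.31e-05). Plasminogen plg and the protease inhibitor serpina1l fell by 1.01 and 1.34. The hepatocyte fatty acid carrier fabp10a stood at 82.2 and 123 against 383, 410 and 322 CPM (log2 fold change -1.85 ± 0.29 SE, edgeR adjusted p = 0.00513). The falls covered carriers (gc, ttr and tfa), clotting factors (fga, fgb, fgg, f2 and f7), complement (c3a.1, c5, c8a, c8b and c9) and amino acid enzymes (tat, hpda and pah). Leaving out any 1 library did not move the number of falls by more than 1.5 times, and 1 member rose without knockout pool 2.

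Among genes of the intestine and its glands few were called. Of 28 tested digestive enzyme genes 3 fell (10.7%, near the 8.73% of all genes) and none rose, with a median of -0.60. The mean of log2(CPM + 1) was 5.30 in knockout pool 1 and 6.11 in knockout pool 2, and 6.07 to 6.44 in the control pools, so the 2 knockout pools were apart and pool 2 lay within the controls. The trypsin-like protease prss59.2 stood at 636 and 620 CPM in the knockout pools and at 908, 1174 and 1056 CPM in the control pools (log2 fold change -0.74 ± 0.21 SE, edgeR adjusted p = 0.0341). The elastase cela1.5 and the astacin protease c6ast3 fell by 1.09 and 0.87. Of 37 tested enterocyte genes 5 fell (13.5%) and none rose, with a median of -0.33. They were the apolipoprotein genes apoa1b (2623 and 3419 against 5942, 4754 and 4790 CPM, log2 fold change -0.77), apoa4b.1 and apoa4b.2, the bile acid carrier fabp6 and the chitinase chia.1. A second entry named apoa4b.2 changed by 0.16 and was not called (adjusted p = 0.831, edgeR). The call of prss59.2 was lost without control pool 4 or 5 or knockout pool 1 or 2, that of cela1.5 without control pool 3 or 4 or knockout pool 1, that of c6ast3 without any 1 of the 5 libraries and that of chia.1 without control pool 3, 4 or 5, with adjusted p between 0.0616 and 0.23 (edgeR). Enzyme falls were 1 without control pool 3 or 5, 0 without control pool 4 or knockout pool 1, and 5 without knockout pool 2, and 1 enzyme gene rose without knockout pool 1. The enterocyte falls were 3 without control pool 5 or knockout pool 1 and 10 without knockout pool 2. Without knockout pool 1, 4 enterocyte genes rose and apoa4b.2 (ENSDARG00000020866) was not called (adjusted p = 0.12, edgeR).

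Metabolic genes held a few strong single changes. Of 29 tested genes of fasting and glucose use 6 rose (20.7%) and 5 fell (17.2%), with a median of 0.10. The mitochondrial coactivators ppargc1a and ppargc1b rose, ppargc1a from 14.9, 15.3 and 15.7 CPM in the control pools to 27.6 and 24.5 CPM (log2 fold change 0.76 ± 0.10 SE, edgeR adjusted p = 2e-04). In control pools 1 and 2, which are not part of this comparison, ppargc1a stood at 25.4 and 23.5 CPM. The glucose-responsive arrestin txnipb fell to 24.9 and 20.4 from 56.1, 72.1 and 60.8 CPM (log2 fold change -1.48 ± 0.15 SE, edgeR adjusted p = 7.3e-05), and the insulin-like growth factor binding protein igfbp1b fell by 1.34. Of 27 tested cholesterol synthesis genes 1 rose (3.7%) and 5 fell (18.5%), with a median of -0.21. The sterol sensor insig1 rose by 0.57, while the synthesis enzymes msmo1, sqlea, cyp51, hmgcra and dhcr7 fell by 0.49 to 1.39. Control pool 3 was the highest of the controls for these enzymes, as in msmo1 (23.5 and 28.8 against 89.5, 62.3 and 55.4 CPM). In control pools 1 and 2, msmo1 stood at 29.3 and 44.0 CPM. The mean of log2(CPM + 1) over the cholesterol list was 4.26 and 4.41 in the knockout pools and 4.38 to 4.84 in control pools 3 to 5. In control pools 1 and 2 it was 4.12 and 4.33. The calls of msmo1 and dhcr7 were lost without knockout pool 1 (adjusted p = 0.0631 and 0.155, edgeR), and that of cyp51 without control pool 4 or knockout pool 1 or 2 (0.0563, 0.204 and 0.116). The single cholesterol rise became 2 without control pool 3. The 5 cholesterol falls became 3 without control pool 4 or 5, 0 without knockout pool 1 and 2 without knockout pool 2. The fasting rises became 3 without control pool 3 or 5 or knockout pool 1, and the falls 2 without knockout pool 1.

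Genes of pigment synthesis were higher. Of 16 tested melanin synthesis genes 11 rose (68.8%) and none fell, with a median of 1.31. The rate-limiting enzyme tyr (tyrosinase) stood at 11.5 and 11.8 CPM in the knockout pools and at 2.68, 2.34 and 2.92 CPM in the control pools (log2 fold change 2.12 ± 0.28 SE, edgeR adjusted p = 0.000807). The melanosome exchanger slc24a5, known as the golden gene of the fish, stood at 3.1 and 2.94 against 0.757, 0.383 and 0.540 CPM (log2 fold change 2.43 ± 0.29 SE, edgeR adjusted p = 0.000106). The melanosome fibril genes pmelb and pmela rose by 2.70 and 1.39, the enzymes dct and tyrp1a by 2.2 and 1.70, oca2 by 1.77 and the melanocyte regulator mitfa by 1.22. Melanin is made both in skin melanophores and in the retinal pigment epithelium, which these pools do not separate. Leaving out any 1 library did not move the count of rises by more than 1.5 times.

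Photoreceptor and lens genes were more often lower. Of 58 tested photoreceptor genes 25 fell (43.1%) and 9 rose, with a median of -0.23. The arrestin sagb stood at 145 and 123 CPM in the knockout pools and at 366, 301 and 308 CPM in the control pools (log2 fold change -1.28 ± 0.13 SE, edgeR adjusted p = 5.67e-05). Rod genes were among the falls. The phosphodiesterase subunit pde6a stood at 22.7 and 19.6 against 41.7, 40.7 and 42.0 CPM, pde6gb and gngt1 fell by 0.87 and 0.92, and rhodopsin rho stood at 1907 and 1778 against 3605, 2906 and 3073 CPM (log2 fold change -0.79 ± 0.12 SE, edgeR adjusted p = 0.000652). Cone opsins fell too, opn1lw1 by 1.64 and opn1sw1 by 0.57. Among the rises were guca1a and the channel cnga3b (2.07). Of 53 tested lens genes 24 fell (45.3%) and 2 rose, with a median of -0.45. The small heat shock crystallin cryaa stood at 36.7 and 26.0 against 62, 68.3 and 58.5 CPM (log2 fold change -1.02 ± 0.16 SE, edgeR adjusted p = 0.00166), whereas crygm2d17 and crygm2d9, members of a large family of near-identical crystallins whose reads may be divided among copies, rose by 1.92 and 1.19. As a whole the lists overlapped between genotypes. For the lens, the mean of log2(CPM + 1) was 6.52 and 6.15 in the knockout pools and 6.48 to 6.72 in the control pools. For the photoreceptors it was 5.73 and 5.54 against 5.70 to 5.74. Control pools 1 and 2 are not part of this comparison. There the mean was 6.26 and 6.22 for the lens and 5.37 and 5.50 for the photoreceptors. The 24 lens falls became 11 without control pool 3, 14 without control pool 4 and 4 without knockout pool 2, and the 2 lens rises 5 without knockout pool 2. The 25 photoreceptor falls became 14 without knockout pool 2, and the 9 rises 5 without knockout pool 1.

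Of 51 tested skeletal muscle genes 7 rose (13.7%, near the 11.2% of all genes) and 8 fell (15.7%, against 8.73%), with a median of -0.03. The fast myosin heavy chain myhb stood at 316 and 313 CPM in the knockout pools and at 91.7, 85.3 and 91.8 CPM in the control pools (log2 fold change 1.81 ± 0.17 SE, edgeR adjusted p = 0.000133). The fast troponin tnnt3a rose by 0.94 and myoglobin mb by 1.5. The calcium pump atp2a1l fell, to 1210 and 1235 from 2316, 2166 and 2162 CPM (log2 fold change -0.86 ± 0.12 SE, edgeR adjusted p = 0.000291), and smyhc2 was nearly absent. Of 42 tested neural genes 7 rose and 7 fell (16.7% each), with a median of 0.07. The myelin genes mbpa, plp1b and mpz fell, mbpa from 113, 118 and 113 CPM to 68 and 71.7 CPM (log2 fold change -0.71 ± 0.09 SE, edgeR adjusted p = 0.000121). The axonal stmn1b fell by 0.50, and the transmitter transporters slc17a6a and slc32a1 rose by 0.52 and 0.46. Muscle rises became 4 without control pool 4 and 3 without knockout pool 2, muscle falls 4 without knockout pool 2, and neural rises 3 without knockout pool 1.

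Cell cycle genes were called less often than all genes, with 3 rises (6.12%, against 11.2%) and 2 falls (4.08%, against 8.73%) among 49 tested. Their median was 0.00, against 0.03 for all tested genes. With library totals as the scaling there were 8 rises and 0 falls. The ubiquitin ligase partner ube2c stood at 23.0 and 29.5 CPM in the knockout pools and at 21.0, 18.5 and 19.8 CPM in the control pools (log2 fold change 0.42 ± 0.11 SE, edgeR adjusted p = 0.0169). The cyclin ccne2 and the mitotic motor kif11 rose by 0.39 and 0.28, and the maintenance methylation cofactor uhrf1 fell by 0.31. Without control pool 4 or knockout pool 2 neither ube2c, ccne2 nor kif11 was called and the number of rises was 0, with adjusted p between 0.0574 and 0.282 (edgeR), and without control pool 5 kif11 was not called (0.078). The fall of uhrf1 was not called without control pool 3 or 5 or knockout pool 1 or 2 (adjusted p between 0.0586 and 0.187, edgeR), and the 2 falls became 0 without control pool 3 or 5 or knockout pool 1 and 1 without knockout pool 2. The 3 rises became 6 without knockout pool 1. Of 46 tested stress genes 7 rose (15.2%) and 5 fell (10.9%), shares near the 11.2% and 8.73% of all genes, with a median of 0.06. Besides cdkn1a, the immediate early genes atf3 and fosaa rose, atf3 to 16.4 and 15.8 from 5.07, 6.19 and 6.90 CPM (log2 fold change 1.4 ± 0.13 SE, edgeR adjusted p = 1.96e-05) and fosaa by 1.82. The chaperone dnajb1b fell by 0.79. The 7 stress rises became 4 without control pool 5 or knockout pool 1, and the 5 falls 3 without control pool 3 and 2 without control pool 5.

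**Figure D4:**
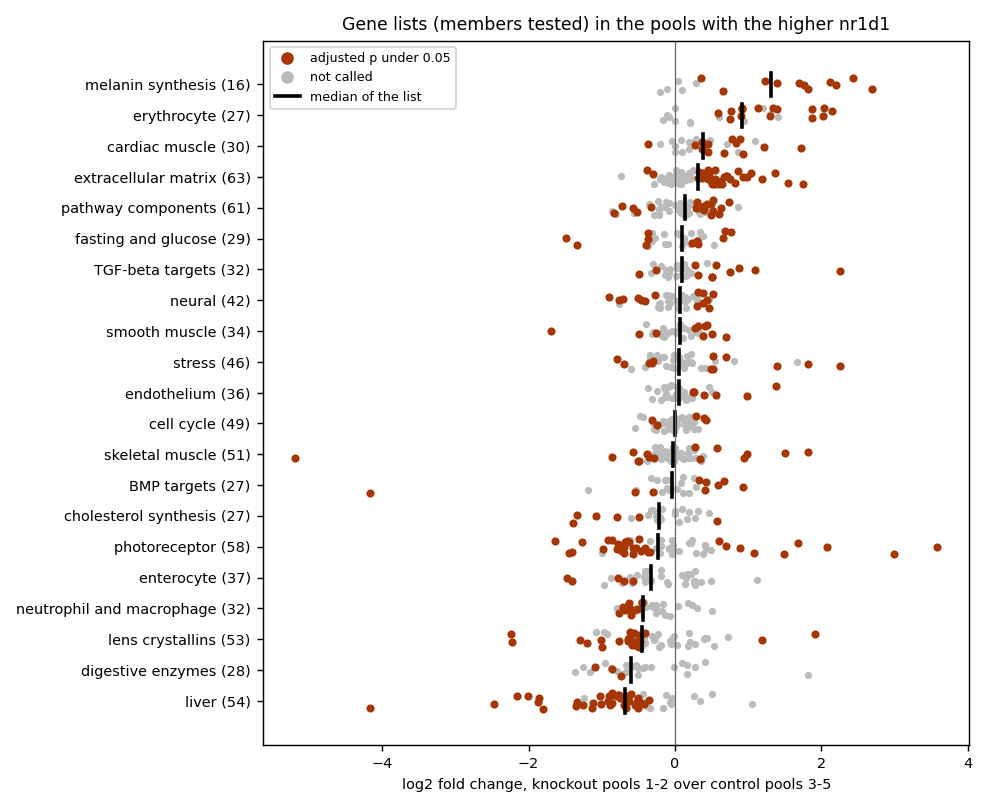
Log2 fold changes of the tested members of 21 gene lists, knockout pools 1 and 2 over control pools 3 to 5, with called members in red, other members in grey and the median of each list as a bar. Medians run from -0.69 for liver to 1.31 for melanin synthesis.

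The pools with the lower nr1d1 gave the same comparison in other libraries, knockout pools 3 to 5 against control pools 1 and 2. These libraries were not contrasted above, but they shared the filter, the scaling and the estimate of the spread. Without knockout pool 3, 4 or 5 the higher set had 4706, 4367 and 5438 called genes. Of these 48.5%, 47.8% and 49% were higher in the knockouts, against 56.2% with all libraries. In the lower set 8022 genes were called (33.8%), 4106 higher (17.3%) and 3916 lower (16.5%). In all, 2473 genes were called in both comparisons. Of them 2230 had the same direction, 1066 higher and 1164 lower, which is 47.1% of the genes called in the higher set and 27.8% of those called in the lower set. The opposite direction was found for 243 genes, 184 of which were higher in the knockouts in the higher set and lower in the lower set. Among annotated genes with a mean of at least 1 CPM over the 10 libraries, clone names left out, called rises in both sets were led by RNPS1, dao.1, rpe65a, ITLN1 (1 of many) and pmelb, and called falls by upp2, smyhc2, hpxa, cbln8 and crp2. The log2 fold change of rpe65a was 3.58 in the higher set and 3.74 in the lower set, and that of upp2 was -5.87 and -7.22.

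**Figure D5:**
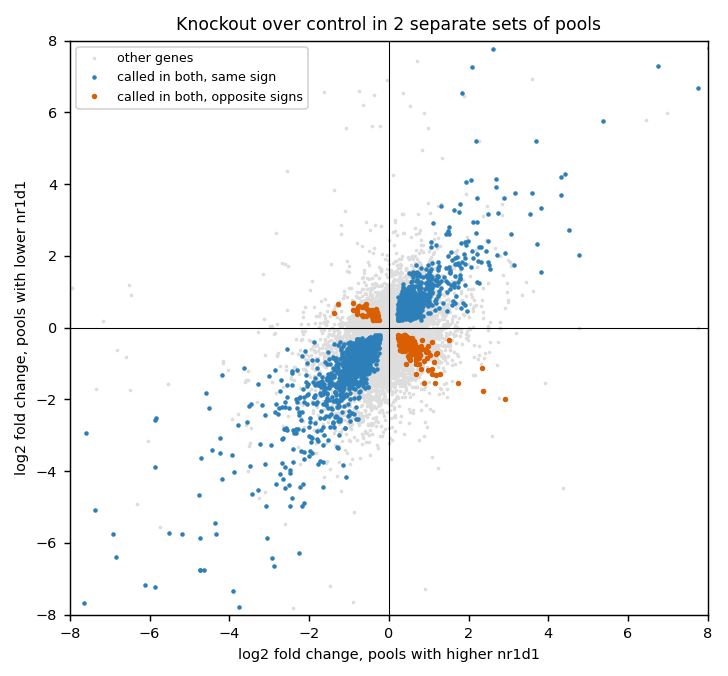
Log2 fold change of knockout over control for each tested gene, in the pools with higher nr1d1 (horizontal) and in the pools with lower nr1d1 (vertical). Genes called in both lie mostly in the quadrants of equal sign (2230 genes, blue) and 243 lie in the others (orange); 29 genes lie beyond the axis limit of 8.

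The difference between the 2 comparisons was itself tested, and 2332 genes were called (9.82%), 1442 with a more positive fold change in the higher set (6.07%) and 890 with a more negative one (3.75%). Of the 4737 genes called in the higher set, 986 were among them. Of the 2264 genes called there but not in the lower set, 547 were. Since nr1d1 chose the sets, genes that follow the clock are not tested independently by this difference. The number fell to 670 without control pool 1 and to 559 without control pool 2, and lay between 1104 and 1542 without control pool 3 or 5 or knockout pool 1.

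For the lists below, 17.3% of all tested genes were called higher and 16.5% lower in the lower set. The difference was called above 0 for 6.07% of all tested genes and below 0 for 3.75%. Melanin synthesis genes rose in both sets, with 11 called in the higher set and 12 in the lower, 10 of them shared. Of the 16, 1 differed between the sets, near the share of all genes. Liver genes fell in both, 38 in the higher set and 23 in the lower, 21 of them shared, while 13 had a more negative and 2 a more positive fold change in the higher set. In the matrix list of 63 members the 31 rises and 2 falls of the higher set stood beside 12 rises and 12 falls in the lower set. These lower-set shares were near those of all tested genes. For the difference, 12 members had a more positive and 1 a more negative fold change in the higher set. Elastin elnb had log2 fold changes of 1.19 and -0.74 in the higher and lower sets (difference 1.93, adjusted p = 0.0141, edgeR), and col4a1 of 0.71 and -0.21 (difference 0.92, adjusted p = 0.00173, edgeR). Digestive enzyme genes had 3 falls in the higher set and 20 in the lower, with medians of -0.60 and -2.04. The difference was called above 0 for 2 of 28, near the share of all tested genes. Enterocyte genes had 5 and 23 falls, and 9 of 37 had a more positive fold change in the higher set. Fasting genes had 13 of 29 with a more positive fold change in the higher set and none with a more negative one. Cell cycle genes had 3 rises in the higher set and 22 in the lower, and 11 of 49 had a more negative fold change in the higher set. Cardiac muscle had 6 of 30 with a more positive fold change in the higher set, such as myh6 (1.72 and 0.01, difference 1.71, adjusted p = 0.00204, edgeR). Erythrocyte genes had 15 rises in the higher set, but 4 rises and 2 falls among 27 in the lower, shares below those of all genes. The difference was called above 0 for 4 of them. The median of the erythrocyte list was 0.92 in the higher set and 0.37 in the lower. In the lower set its mean of log2(CPM + 1) was 4.60, 4.41 and 3.98 in knockout pools 3 to 5. It was 4.02 and 4.13 in control pools 1 and 2, so knockout pools 3 and 4 lay above them and pool 5 below. Lens genes had 24 falls in the higher set and 8 among 53 in the lower, the latter near the share of all genes. The difference was called below 0 for 2 lens genes, also near that share. Photoreceptor genes had 25 falls in the higher set and 31 among 58 in the lower, 24 of them shared. Their 9 rises in the higher set stood beside 10 in the lower, 3 of them shared, and the 10 were near the share of all genes. For the photoreceptors the difference was called above 0 for 6 and below 0 for 1.

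Outside the clock list, the genes with the lowest p for the difference were slc16a6b, of the monocarboxylate transporter family, and cipca, a CLOCK-interacting protein in mammals. The level of slc16a6b was 52.0 and 50.4 CPM in the knockout pools of the higher set and 13.0, 13.0 and 13.1 CPM in its control pools, and its log2 fold changes were 1.97 and 0.47 in the higher and lower sets (difference 1.5 ± 0.12 SE, edgeR adjusted p = 2.59e-05). For cipca they were 1.75 and -1.55. Since nr1d1, a clock gene, chose the sets, the values of cipca are a description, and its rank by p is no independent result. In the other direction, the notch-responsive repressor her6 had log2 fold changes of -0.79 and 0.37, the collagen chaperone serpinh1b of -1.38 and 0.40, vitronectin vtna of -0.57 and 0.65 and the mesenchymal transcription factor twist2 of -0.76 and 0.58. The potassium channel kcnk5a was not called in the higher set (4.25 and 4.25 against 5.30, 4.19 and 4.19 CPM) and rose by 1.91 in the lower set (difference -2.0 ± 0.23 SE, edgeR adjusted p = 0.000538).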

How the data were processed

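Pools of 5 whole larvae gave column-purified RNA, of which 200 ng was made into libraries with the TruSeq Stranded Total RNA kit, as the labels' protocols state. The table the authors deposited has raw counts for 32520 Ensembl genes with gene names and no entry without one. The submitters' processing notes list genome build GRCz11, FastQC 0.11.9, Trim Galore 0.6.6, featureCounts, Subread 2.0.0 and MultiQC 1.9, without roles; the aligner and the use of strand in counting are not given in the sources used here. The other 30 samples of the series were not analysed here, and 0 columns of per-sample values were left unused.

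The tests were run with edgeR 4.0.16 under R 4.3.3. The filterByExpr filter left 23754 genes, libraries were scaled by TMM, and a robust quasi-likelihood fit held all 10 whole-larva libraries in 4 groups (genotype by nr1d1 set), which share the estimate of the spread (biological coefficient of variation 10.9%). Contrasts gave knockout over control in each set and their difference, with Benjamini-Hochberg adjustment over all genes tested. Each standard error is the absolute log2 fold change over the root of its F statistic. CPM are scaled by TMM, except for bounds against a group without counts, which use 3 counts over the group. Groups were 2 against 3 pools. Chi-square per degree of freedom between same-group pools was 10.4 to 18.8, so no library was counted as deposited more than once. Intervals and floors cover counting error only.

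The libraries, the 23 gene lists and the tests were chosen with earlier results of these data known. Genes named were the targeted genes, nr1d1, the 8 called genes that rose and the 8 that fell most at 1 CPM or more and without overlap, the 3 largest of each among clone names, up to 4 called members of each list by lowest p, and the 5 with the lowest p for each sign of the difference or the largest changes in both sets. Lists are described by counts and medians, without a set test. Gene names were looked up in RefSeq's GRCz12tu table for the order of genes, a step added after the data were seen.

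A test was run on simulated data for 23380 genes. The comparison of the higher set recovered 84% of 100 genes changed by 1 on the log2 scale and 30% of 100 changed by 0.5. Beside these 84 and 30 true calls there were 14 false calls, among 23180 unchanged genes. The false calls were thus a larger share of all calls than the threshold set on the adjusted p. In the real data 4737 genes were called. With so many more changed genes the adjusted threshold is less strict. The recovery and the share of false calls in the simulation therefore do not give those in the real data. Alternatives were 3 other scalings (DESeq2 size factors, upper quartile, library totals), other filters, the DESeq2 1.42.0 Wald test, limma-voom (limma 3.58.1), a fit of only the libraries compared, thinning to the smallest total, stricter thresholds and each library left out.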

Additional observations from a re-analysis of the deposited data

Results flagged for a closer look

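Among the 112 named genes outside the clock list, 40 had a fold change of knockout over control that differed between the pools with higher and with lower nr1d1 (adjusted p under 0.05, edgeR quasi-likelihood test of the difference, Benjamini-Hochberg). Over all 23754 tested genes this share was 9.82%. The difference was above 0 for 28 and below 0 for 12, and it is given below on the log2 scale as the higher set minus the lower set. The sets were chosen by nr1d1. Most of the genes were named for their change in the higher set, which is 1 side of this difference, and some for the difference itself. The count of 40 and its directions are therefore not a like comparison with all tested genes, and these values describe the pools. Matrix and pathway genes with a more positive fold change in the higher set were col4a1 (0.92), col11a2 (0.73), loxl2a (0.75), thbs1b (0.60), tgfb2 (0.76) and tgfbr1b (0.79). Cardiac and endothelial genes were myh6 (1.71), ryr2b (1.43), myh7l (1.01) and vwf (0.76). Of these, ryr2b rose in the higher set (0.83) and fell in the lower set (-0.59, adjusted p = 0.00886, edgeR). Red cell genes were tfr1a (1.17), fech (0.98) and nt5c2l1 (0.83). Genes of stress and growth arrest were fosaa (1.93), atf3 (1.16) and cdkn1a (1.02). Metabolic and transporter genes were slc16a6b (1.5), ppargc1a (0.72), ppargc1b (0.59) and insig1 (0.58). Genes that fell in both sets, and by less in the higher set, were igfbp1b (1.14), hpxa (2.01), ahsg1 (0.71), c6ast3 (1.55), prss59.2 (1.07), csf1ra (1.19) and atp2a1l (0.53). For cipca the difference was 3.30, with a rise in the higher set (1.75) and a fall in the lower set (-1.55).

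Below 0 were, among liver and blood genes, hamp (-2.86), itih2 (-0.60), vtna (-1.22) and npsn (-0.56). Among regulators, chaperones and cell cycle genes they were her6 (-1.16), twist2 (-1.34), serpinh1b (-1.78), dnajb1b (-1.25), ube2c (-0.66) and kif11 (-0.47), and 2 further genes were igflr1 (-2.75) and kcnk5a (-2.0). The 3 genes hamp, igflr1 and itih2 fell in both sets, and by more in the higher set, whereas her6, serpinh1b, vtna, twist2 and dnajb1b fell in the higher set and rose in the lower set.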

How the results depend on the processing

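No paired analysis was possible because the knockout pools and control pools compared share no replicate number. The 4737 genes called in the higher set became 1973 at an adjusted p under 0.01 and 929 with an absolute log2 fold change of at least 1, the 8022 of the lower set became 4565 and 1751, and the 2332 of the difference 463 and 618. At that fold threshold smad6b (0.63) and smad3b (-0.98) were not called. Leaving out 1 library gave 2518 to 3993 genes in the higher set, 4053 to 7678 in the lower set and 559 to 2668 for the difference, with the lone remaining library assumed to vary like the others. The ranges for the higher and the lower set cover only libraries of the set itself. Over those of the higher set the log2 fold change ranged from -1.68 to -1.59 for smad3a and from -1.0 to -0.96 for smad3b. It ranged from 0.14 to 0.26 for smad6a and from 0.59 to 0.68 for smad6b. The other scalings, filters and tests gave 4344 to 5428 genes in the higher set, and thinning to the smallest total gave 3697. No setting that gave a value reversed a targeted gene or a named gene called in the higher set, and the direction of other genes was not followed. Among the named genes kcnk5a, not called, changed sign without control pool 3 (0.02). Of 42 list counts, 6 moved with library totals and 2 with the upper quartile, and 22 and 20 without knockout pools 1 and 2. Enterocyte rises, 0 with TMM, were 3 with library totals, and cell cycle rises, 3 with TMM, were 8. In the simulated data, which held far fewer changed genes than were called here, a change of 0.5 on the log2 scale was often missed. How often it is missed in the real data was not tested. Genes and lists not called are not shown to be equal between genotypes.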
